A study of Mus musculus with 2 samples.

Results

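The genes described here encode the lysosome's hydrolases, the proteins of its membrane, its proton pump and the transcription factors known to drive them. They are 46 of the 21983 gene entries of a count table, chosen by their symbols from a list made by function. The rule uses no measured value, but the list was made with earlier results of these data known. The list holds 3 factors of the TFEB family, 7 membrane and sterol proteins, 9 cathepsins, 12 other hydrolases and lumenal proteins, and 15 genes of the proton pump. All 46 symbols were found in the table, and the genes lie on 20 chromosomes.

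The cells were 14837, a mouse line of pancreatic ductal adenocarcinoma (PDAC) from C57BL/6 mice, grown in DMEM with 10% FBS and 100 U/ml penicillin. They were kept for 48 h in conditioned medium, which is medium that other cells have already grown in. One library was made from cells in medium of fibroblasts that belong to the tumour's stroma (CAFs), and the other from cells in medium of 14837 cells themselves. The study's title concerns nucleosides that the surroundings of a pancreatic tumour release. With 1 library per medium, and with 1 of the 2 value columns tied to no library by its name, only the library of the CAF medium was used. The values are therefore levels within those cells, and the media were not compared.

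Lysosomes break down proteins, lipids, glycans and nucleic acids with hydrolases that work in an acid lumen. The acid comes from the vacuolar proton pump, whose V1 part splits ATP in the cytosol and whose V0 part carries protons across the membrane. TFEB, TFE3 and MITF are related transcription factors that bind an E-box in the promoters of many lysosomal genes, and mTORC1 is known to hold them in the cytoplasm when nutrients are plentiful. In pancreatic cancer these factors are known for keeping lysosomal genes active.

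The library held 21269197 counts. A count of 10 or more was reached by 11569 entries (52.6%), and 8056 entries stood at 0. Counts were scaled to a total of 1000000 counts per library (CPM), and genes were compared only as CPM per kilobase of all annotated exons, written CPM per kb. The median of the 11525 genes with a length and at least 10 counts was 8.14 CPM per kb, and their upper quartile began at 20.3 CPM per kb. Intervals are 95% intervals that cover counting error alone, because no culture was repeated. Of 1075 entries with 10 to 39 counts, 36.9% held a multiple of 3, against 33.3% of the whole numbers in that range, so low counts may not be plain read numbers and the intervals may be too narrow. In RNA from a whole culture, fewer cells of a kind and less RNA per cell cannot be told apart.

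Most of the 46 genes stood high in these cells. Further genes of hydrolases and membrane proteins, given later, did not do so as a set, while a list made mostly of TFEB regulators did. Of the 46 genes, 43 had at least 10 counts, and 33 of these lay above the median gene and 26 in the upper quartile of all genes. That is 76.7% above the median and 60.5% in the upper quartile, where all ranked genes give 50% and 25% by construction. The median of the 43 genes was 30.7 CPM per kb, higher than 83.8% of ranked genes, and it was 59.5 CPM per kb when each gene's longest protein-coding transcript was taken as its length. By that length the median was higher than 88.7% of ranked genes. The 46 genes together took 0.716% (0.713 to 0.720) of all counts. The remaining 3 genes were the factor Mitf, with 4 counts, and the pump subunit Atp6v1c1 and the cathepsin Ctss, both listed at 0.

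**Figure D1:**
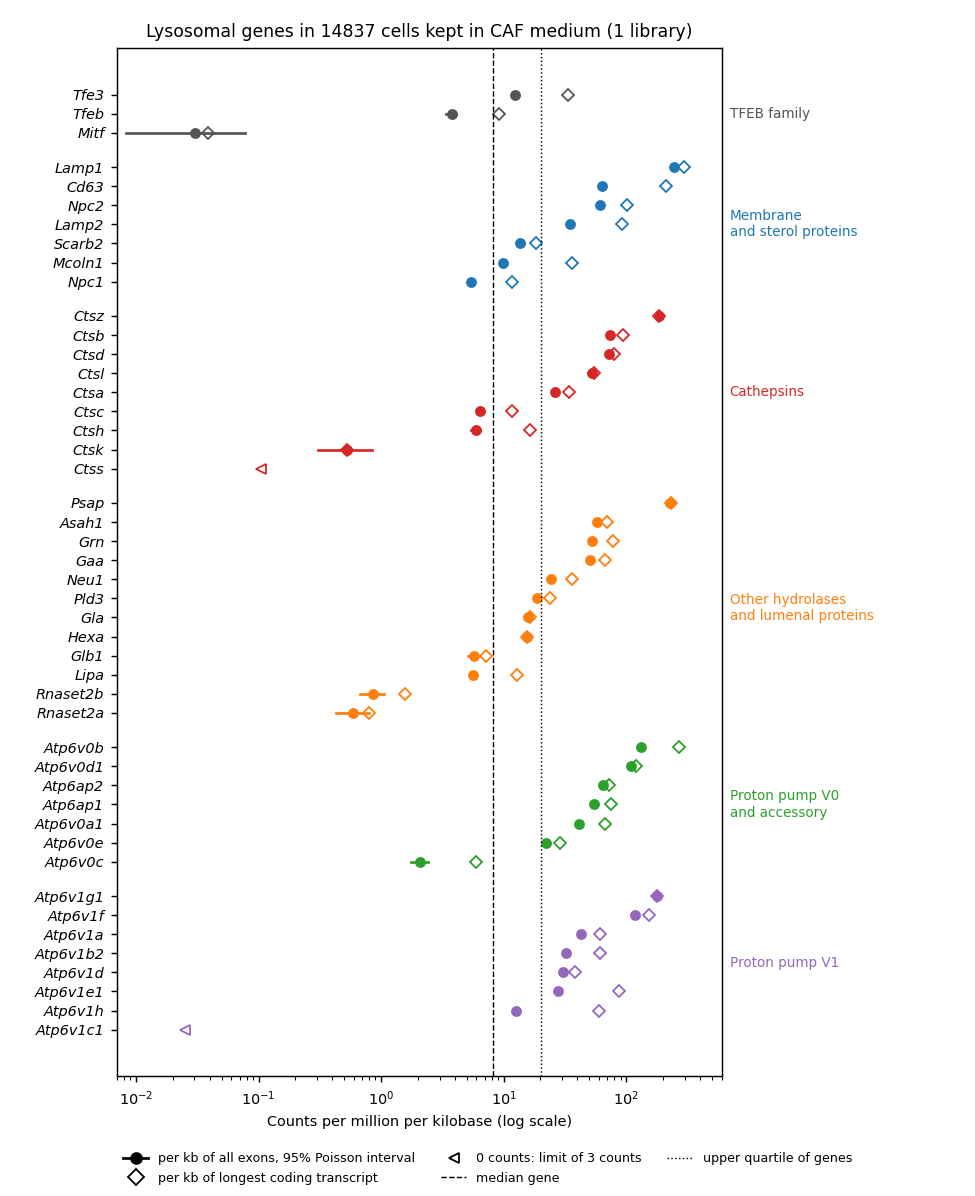
Level of each of the 46 lysosomal genes in 14837 cells kept in CAF medium, in CPM per kilobase on a log scale, by group. Filled points are per kilobase of all exons with the 95% Poisson interval, open diamonds are per kilobase of the longest protein-coding transcript, and open triangles mark the limit of 3 counts for the 2 genes at 0. The dashed line is the median gene at 8.14 CPM per kb and the dotted line the upper quartile at 20.3 CPM per kb. Lamp1 and Psap lead at 246 and 227 CPM per kb, and 33 genes lie right of the dashed line.

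The order of the levels ran from the membrane glycoprotein Lamp1 at 246 CPM per kb to the protease Ctsk at 0.529 CPM per kb, a 466-fold range. After Lamp1 came the saposin precursor Psap, the cathepsin Ctsz and the pump subunits Atp6v1g1, Atp6v0b, Atp6v1f and Atp6v0d1, all above 100 CPM per kb. Among the 42 neighbouring pairs in this order, 28 differed by more than counting error per kilobase of all exons. Of those 28 pairs, 18 also had the same order under the other 2 ways of measuring length. Neighbours that did not differ by counting were Ctsb and Ctsd, Atp6ap2 and Cd63, Atp6v1a and Atp6v0a1, Gla and Hexa, and Atp6v1h and Tfe3. The runs from Atp6ap1 through Grn and Ctsl to Gaa, between 54.7 and 50.9 CPM per kb, and from Ctsc through Ctsh, Glb1 and Lipa to Npc1, between 6.45 and 5.39 CPM per kb, were likewise not ordered from 1 neighbour to the next. The same held for Rnaset2b, Rnaset2a and Ctsk at the foot of the order. Over all 903 pairs of the 43 genes, 819 (90.7%) kept their order under all 3 lengths.

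Of the TFEB family, Tfe3 had the highest RNA level and Mitf was almost without counts. Tfe3 had 2438 counts, or 115 CPM (110 to 119), and stood at 12.4 CPM per kb, above the median gene. Tfeb had 453 counts, or 21.3 CPM (19.4 to 23.4), and stood at 3.76 CPM per kb, below it. Mitf, the family member best known from melanocytes, had 4 counts, or 0.188 CPM (0.0512 to 0.482). Per kilobase of all exons, Tfeb was at 0.304 (0.274 to 0.336) of the Tfe3 level, and per kilobase of the longest transcript at 0.502 (0.453 to 0.555). Tfe3 lay 408-fold (159 to 1498) above Mitf per kilobase of all exons. Tfec, the fourth gene of the family and outside the 46, was listed at 0. The counts measure RNA and say nothing of where in the cell these factors were.

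These factors bind the E-box core CACGTG, above all in the extended form TCACGTGA, the centre of the so-called CLEAR element. That element was first described from promoters of lysosomal genes, so finding it here is no independent evidence. RefSeq promoters (GRCm38.p6, from 250 bases before to 50 after the start) were given for 38 of the 46 genes, with 48 promoters among them. There was no entry for Asah1, Ctsb, Ctsh, Npc1, Atp6v1b2, Atp6v1c1, Atp6v1g1 and Atp6v1h. Motifs were searched on both strands. CACGTG and TCACGTGA read the same on both strands, and each TCACGTGA also counts as a TCACGTG and as a CACGTG. TCACGTGA was in the window of 7 of 38 genes (18.4%), against 203 of 9132 genes with at least 10 counts (2.22%) and 1.12% of all 27025 genes. TCACGTG was in that of 11 genes (28.9%), against 7.01% of genes with at least 10 counts. The bare core CACGTG was in that of 12 genes (31.6%), against 11.8%. Counted per promoter, 14.6% of the 48 promoters held TCACGTGA. It was in 1.85% of promoters of genes with at least 10 counts and in 0.974% of all 32851 promoters of that length.

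The promoters shown here are those of the highest gene, Lamp1, and of the 7 genes with TCACGTGA. All are from mm10, 5′ to 3′ on the gene's own strand, and capitals mark the E-box core with each flanking T or A that extends it. Lamp1, the highest gene, has 4 cores with 1 flanking base each in the 62 bases before its start. Atp6v0d1, the highest pump gene with TCACGTGA, carries it across the start itself, and Atp6v1a carries it upstream, just after a run of T and A. The Lamp1 and Atp6v0d1 stretches run from 100 bases before the start to 30 after it, and the Atp6v1a stretch holds 88 bases around its site.
Lamp1 (chr8:13159061-13159190, plus strand): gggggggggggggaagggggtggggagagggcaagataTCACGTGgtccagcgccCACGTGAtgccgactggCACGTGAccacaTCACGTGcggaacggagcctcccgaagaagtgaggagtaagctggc
Atp6v0d1 (chr8:105566035-105566164, minus strand): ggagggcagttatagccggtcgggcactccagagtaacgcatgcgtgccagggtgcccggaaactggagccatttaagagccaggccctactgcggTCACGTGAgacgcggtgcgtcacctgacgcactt
Atp6v1a (chr16:44139344-44139431, minus strand): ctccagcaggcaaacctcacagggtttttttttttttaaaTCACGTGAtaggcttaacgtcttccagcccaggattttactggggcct

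The other genes with TCACGTGA are shown by 30 bases around each site, because those stretches lie in exons of transcripts in the GENCODE annotation. For Ctsa, Ctsd, Mcoln1 and Atp6v0e the exons belong to the gene itself, and for Gla to its neighbour Hnrnph2. In Ctsa the 2 sites lie on either side of the start, and in Gla both sites lie well upstream of it.
Ctsa (chr2:164833758-164833787, plus strand): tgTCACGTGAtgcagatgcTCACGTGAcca
Ctsd (chr7:142387908-142387937, minus strand): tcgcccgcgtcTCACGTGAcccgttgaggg
Mcoln1 (chr8:3500462-3500491, plus strand): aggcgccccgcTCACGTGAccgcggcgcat
Atp6v0e (chr17:26676387-26676416, plus strand): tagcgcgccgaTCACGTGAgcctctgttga
Gla first site (chrX:134601215-134601244, minus strand): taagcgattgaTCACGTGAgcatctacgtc
Gla second site (chrX:134601182-134601211, minus strand): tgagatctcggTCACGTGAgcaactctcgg

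The 12 genes held 20 cores, of which 9 had both flanking bases, 10 had 1 and 1 had neither. Of the 20 cores, 12 began within 100 bases before the start, 6 farther upstream and 2 after it. When only the 150 bases up to the start were searched, TCACGTGA was in 4 of 38 genes (10.5%), against 1.51% of genes with at least 10 counts. Cores with 1 flanking base were in Lamp1, Atp6v0b, Glb1 and Gaa, and in Ctsd and Mcoln1 beside their TCACGTGA, and Ctsl had a bare core. The promoters of Tfeb, Tfe3 and Mitf held none of the 3 motifs in these windows. The median GC content was 59.2% in the 48 promoters and 60.7% in those of genes with at least 10 counts. The 7 genes with TCACGTGA all lay above the median gene, and their own median was 26.4 CPM per kb. The 29 others with a promoter and at least 10 counts had a median of 30.7 CPM per kb, 21 of them above the median gene. For the bare core CACGTG the medians were 46.8 CPM per kb over the 12 genes with it and 26.1 CPM per kb over the 24 others with at least 10 counts, so the order of the medians depended on the motif.

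**Figure D2:**
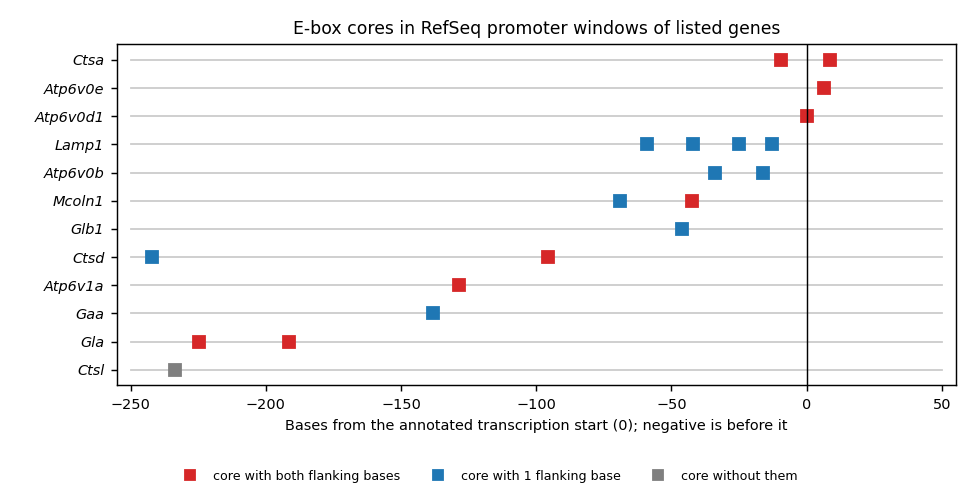
Position of each E-box core in the promoter windows of the 12 lysosomal genes that hold one, in bases from the annotated transcription start, with negative values before it. Colours give the flanking bases: both, 1 or none. Lamp1 has 4 cores close before its start, and 12 of the 20 cores begin within 100 bases before a start.

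The membrane and sterol group, which includes the soluble protein Npc2 and is called the membrane group below, was led by Lamp1. Of its 7 genes, 6 lay above the median gene. The median of the 7 was 34.8 CPM per kb of all exons and 92.2 CPM per kb of the longest protein-coding transcript. By these lengths it was higher than 86.2% and 93.5% of ranked genes. Lamp1 and Lamp2 encode the most abundant glycoproteins of the lysosomal membrane, and Lamp2 also serves in the fusion of autophagosomes. Lamp1 (chr8:13159161-13175338, plus strand, mm10) had 14016 counts, or 659 CPM (648 to 670), and Lamp2 had 7065 counts, or 332 CPM (324 to 340). Per kilobase of all exons Lamp1 was 7.08-fold (6.88 to 7.29) above Lamp2, and per kilobase of the longest transcript 3.21-fold (3.12 to 3.30). The difference therefore kept its direction and lost over 1.5-fold of its size with the other length. Exons of the neighbour Grtp1 on the other strand cover 9.31% of the exonic bases of Lamp1, and the strand setting of the counting is not given in the sources used here.

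Cd63, a tetraspanin of late endosomes and of the vesicles they release, had 5004 counts, or 235 CPM (229 to 242). It stood at 63.9 CPM per kb of all exons and at 212 CPM per kb of its longest protein-coding transcript. Of the 64-base windows of that transcript, 30.3% were also found in other genes, among them the pseudogene Cd63-ps, so its level is uncertain. Scarb2, a membrane protein that also serves as a sorting receptor for a hydrolase, had 1821 counts and stood at 13.6 CPM per kb. Mcoln1, a calcium channel of the membrane, had 1595 counts and stood at 9.93 CPM per kb of all exons and 36.3 CPM per kb of the longest protein-coding transcript.

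The cholesterol carriers stood far apart. Npc2, the soluble protein that hands cholesterol to Npc1, had 7094 counts and 61.3 CPM per kb. Npc1, the membrane protein that takes cholesterol out of the lysosome, had 1298 counts and 5.39 CPM per kb, the lowest of the membrane group. The Npc1 level was 0.0879 (0.0828 to 0.0933) of the Npc2 level per kilobase of all exons and 0.116 (0.109 to 0.123) of it per kilobase of the longest protein-coding transcript.

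The cathepsins split into a high and a low set. Ctsz, Ctsb, Ctsd, Ctsl and Ctsa lay in the upper quartile of genes, and Ctsc, Ctsh and Ctsk lay below the median gene. The median of the 8 cathepsins with at least 10 counts was 39.3 CPM per kb. Per kilobase of the longest transcript 6 of the 8, in place of 5, lay above the median gene, with Ctsc at 11.6 CPM per kb beside a median gene of 11.1 CPM per kb. By the longest protein-coding transcript it was again 6 of the 8, with Ctsh as the sixth. The low set thus changed with the length used. Ctsz (chr2:174427493-174439039, minus strand, mm10), a carboxypeptidase, had 5673 counts, or 267 CPM (260 to 274), and led at 185 CPM per kb. Its coding transcript is the whole of its annotated exons, so its level was the same under all 3 lengths.

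Ctsb, an abundant cysteine protease, had 9523 counts, or 448 CPM (439 to 457), and stood at 74.0 CPM per kb. Ctsd, the main aspartic protease of lysosomes, had 3622 counts, or 170 CPM (165 to 176), and stood at 72.4 CPM per kb. These 2 could not be told apart by counting per kilobase of all exons, at a ratio of 1.02 (0.983 to 1.06), while per kilobase of the longest transcript Ctsb was 1.18-fold (1.13 to 1.23) higher. Ctsl, a related cysteine protease, had 7207 counts and 52.2 CPM per kb, and Ctsb lay 1.42-fold (1.37 to 1.46) above it per kilobase of all exons. Exons of other genes cover 34.4% of the exonic bases of Ctsd, 26.8% of those of Ctsl and 12.8% of those of Ctsb, so part of these counts may belong to overlapping genes. Ctsa, the carboxypeptidase that shields Glb1 and Neu1 in a shared complex, had 2649 counts and 26.4 CPM per kb, with 17.4% of its exonic bases in exons of Pltp and Neurl2.

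The lower cathepsins per kilobase of all exons were Ctsc, Ctsh, Ctsk and Ctss. Ctsc, which activates serine proteases of immune cells, had 797 counts and 6.45 CPM per kb. Ctsh, an aminopeptidase, had 568 counts and 5.94 CPM per kb, and these 2 did not differ by counting, at a ratio of 1.09 (0.975 to 1.21) per kilobase of all exons. Per kilobase of the longest protein-coding transcript Ctsh stood above Ctsc, at 16.5 against 11.6 CPM per kb. Ctsk, the collagen-degrading protease of osteoclasts, had 17 counts, or 0.799 CPM (0.466 to 1.28). Ctss, which trims antigens in antigen-presenting cells, was listed at 0, which allows up to 0.141 CPM by counting error alone.

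Ctsk and Ctss are neighbours on chromosome 3, 17423 bases apart (Ctsk at chr3:95499256-95509362 and Ctss at chr3:95526786-95556403, both plus strand, mm10). Arnt, the next protein-coding gene before Ctsk at a distance of 2015 bases, had 4051 counts. Hormad1, the next protein-coding gene after Ctss, had 2 counts. The low counts thus span this stretch of 3 protein-coding genes, while Arnt beside it was well covered.

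Of the 12 other hydrolases and lumenal proteins, all had at least 10 counts, 8 lay above the median gene and 5 in the upper quartile. Their median was 17.3 CPM per kb. Psap, Asah1, Grn, Gaa and Neu1 made up the upper 5. Psap (chr10:60277627-60302597, plus strand, mm10), which yields the saposins that present sphingolipids to their hydrolases, had 13222 counts, or 622 CPM (611 to 632), at 227 CPM per kb. Asah1, acid ceramidase, followed with 4144 counts at 57.5 CPM per kb.

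Grn, the growth factor precursor progranulin, had 3905 counts and 52.8 CPM per kb. Gaa, which breaks down glycogen, had 5173 counts and 50.9 CPM per kb. Both stood above the sialidase Neu1, which had 1920 counts and 24.2 CPM per kb. Pld3, an exonuclease of single-stranded nucleic acids, had 1169 counts and 18.8 CPM per kb. Gla, alpha-galactosidase A, had 1099 counts and 15.8 CPM per kb.

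Hexa, which encodes the alpha chain of beta-hexosaminidase A, had 656 counts and 15.5 CPM per kb. Exons of Tmem202 cover 12.8% of its exonic bases. Below the median gene lay Glb1, beta-galactosidase, with 366 counts and 5.72 CPM per kb, and the acid lipase Lipa with 815 counts and 5.65 CPM per kb.

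The RNA-degrading enzymes of the RNase T2 kind were the lowest of this group. Mice carry a duplicated pair, Rnaset2a and Rnaset2b, on chromosome 17 (chr17:8115445-8148097, minus strand, and chr17:6970634-7011299, plus strand, mm10). Rnaset2b had 81 counts, or 3.81 CPM (3.02 to 4.73), and Rnaset2a 42 counts, or 1.97 CPM (1.42 to 2.67). Of the windows of each, 75.3% were also found in other genes, the partner among them. How reads with several matches were counted is not given in the sources used here, so neither the level of each copy nor the sum is certain. The ratio of Rnaset2a to Rnaset2b was 0.691 (0.464 to 1.02) per kilobase of all exons and 0.517 (0.347 to 0.759) per kilobase of the longest transcript.

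Genes of the proton pump stood high as a group: 13 of 15 lay above the median gene and 12 in the upper quartile. The median of the 14 with at least 10 counts was 42.1 CPM per kb, higher than 88.8% of ranked genes. The 15 genes took 0.230% (0.228 to 0.232) of all counts. Atp6v0c and Atp6v1c1 were the 2 genes below the median gene.

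In the V1 part, Atp6v1a encodes the catalytic subunit A, which splits ATP, and Atp6v1b2 the subunit B beside it. Atp6v1a had 5502 counts, or 259 CPM (252 to 266), at 42.8 CPM per kb, and Atp6v1b2 had 3657 counts, or 172 CPM (166 to 178), at 32.4 CPM per kb. The central shaft is made of subunits D and F: Atp6v1d had 3009 counts at 30.7 CPM per kb, and Atp6v1f had 2648 counts at 117 CPM per kb. Of the windows of Atp6v1f, 10.6% were also found in another gene. The outer stalks pair subunits E and G. Atp6v1g1 (chr4:63544772-63550750, plus strand, mm10) led V1 with 4280 counts at 177 CPM per kb, although 14.9% of its windows were found in other genes. Atp6v1e1 had 2449 counts at 28.0 CPM per kb of all exons and 87.8 CPM per kb of its longest protein-coding transcript. Atp6v1h, the subunit H that regulates the pump, had 2595 counts and stood at 12.5 and 59.5 CPM per kb by those lengths. The V1 median rose likewise from 32.4 to 61.1 CPM per kb with the coding length. Its place among ranked genes went from 85.0% to 89.1%.

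Subunit C, which links V1 to the membrane part, was the gap in this set. Its widely expressed gene Atp6v1c1 (chr15:38661933-38692446, plus strand, mm10) was listed at 0, and its paralog Atp6v1c2 had 11 counts, or 0.517 CPM. Atp5a1 and Uqcrc1, genes of mitochondrial respiration that cells generally use, were also listed at 0 in this table. A gene listed at 0 is therefore not described as unexpressed, and no fold is given against one. Azin1, the next protein-coding gene before Atp6v1c1, lies 142666 bases away and had 7863 counts. Baalc, the next protein-coding gene after Atp6v1c1, lies 240697 bases away and was listed at 0.

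In the V0 part, 6 of 7 genes lay in the upper quartile and the median was 54.7 CPM per kb. Atp6v0b, the subunit c″ of the proton-carrying ring, had 5779 counts, or 272 CPM (265 to 279), at 132 CPM per kb of all exons and 272 CPM per kb of its longest transcript. Exons of Gm12841 cover 11.8% of its exonic bases. Atp6v0d1 (chr8:105524465-105566047, minus strand, mm10), which joins the ring to the shaft, had 4192 counts, or 197 CPM (191 to 203), at 110 CPM per kb. Atp6v0a1, the subunit a that holds the proton channels, had 5775 counts at 41.4 CPM per kb, and the small subunit gene Atp6v0e had 1741 counts at 22.1 CPM per kb.

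Atp6v0c, which encodes the main subunit of the ring, stood apart from the rest of V0. It had 149 counts, or 7.01 CPM (5.93 to 8.22), at 2.07 CPM per kb of all exons and 5.92 CPM per kb of its longest protein-coding transcript. Of the windows of that transcript, 30% were also found in other genes, among them the pseudogenes Atp6v0c-ps2 and Atp6v0c-ps1. The part of shared sequence in its low count was not tested. The accessory genes Atp6ap1 and Atp6ap2, which encode proteins needed to assemble the pump, had 3521 and 3578 counts. Atp6ap1 was at 0.851 (0.812 to 0.892) of Atp6ap2 per kilobase of all exons and at 1.04 (0.997 to 1.09) per kilobase of the longest transcript, so their order rests on the length used.

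Several subunits have paralogs that are known for narrower use, in kidney, bone, brain or testis. Most of these had few or no counts here. Atp6v0d2, Atp6v1b1, Atp6v1e2 and Atp6v1g3 were listed at 0, beside 4192 counts of Atp6v0d1, 3657 of Atp6v1b2, 2449 of Atp6v1e1 and 4280 of Atp6v1g1. Atp6v1g1 lay 338-fold (234 to 509) above Atp6v1g2 per kilobase of all exons and 206-fold (142 to 310) by the coding length. Atp6v0e2 had 1 count, which puts Atp6v0e at 1117-fold (200.2 to 44134) per kilobase of all exons.

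Subunit a was the exception, with 3 of its 4 genes well covered. Atp6v0a2, known from the Golgi, had 3021 counts at 21.1 CPM per kb, and Tcirg1, the subunit a3 known from osteoclasts, had 1769 counts at 18.1 CPM per kb. Atp6v0a1 lay 1.96-fold (1.88 to 2.05) above Atp6v0a2 and 2.29-fold (2.17 to 2.42) above Tcirg1 per kilobase of all exons. Atp6v0a4, the kidney form, had 2 counts.

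**Figure D3:**
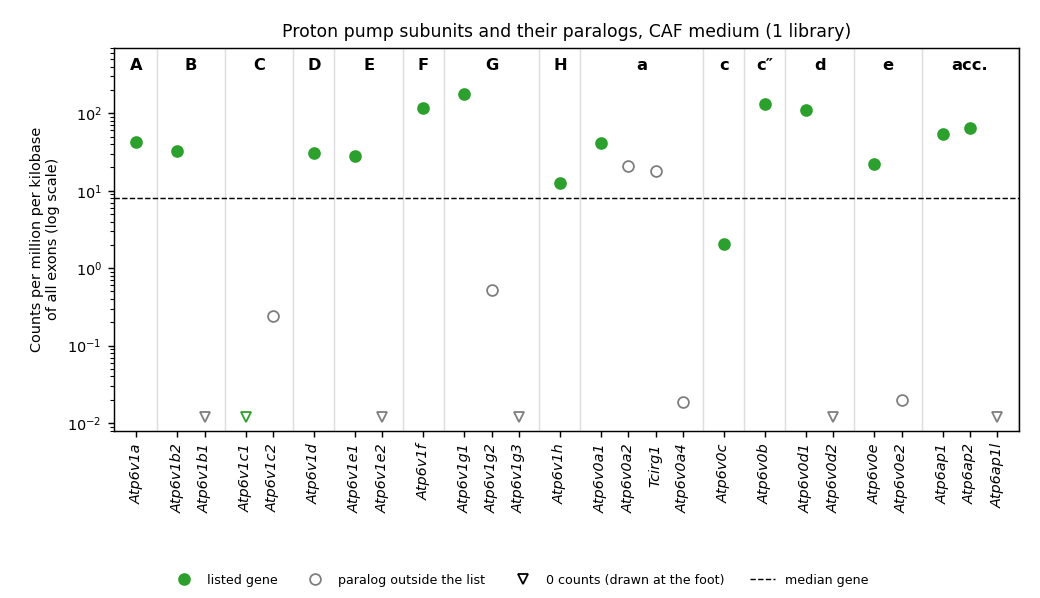
Level of each proton pump gene and its paralogs in the CAF-medium library, in CPM per kilobase of all exons on a log scale, with subunit letters above. Green points are the listed genes, open points are paralogs outside the list, and triangles at the foot are genes at 0 counts. Apart from subunit a and the accessory proteins, each subunit with paralogs shows at most 1 gene above the median gene at 8.14 CPM per kb, and subunit C shows none.

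Other genes of the pathway give the setting of these levels. Of 38 further hydrolases, 36 had at least 10 counts, 17 of them higher than the median gene, and their median was 7.15 CPM per kb. Among the highest were the carboxypeptidase Scpep1 at 132 CPM per kb, the peptidase Tpp1 at 30.5 and legumain, Lgmn, at 27.6 CPM per kb. Ctsf was listed at 0. Of 29 further membrane proteins in the table, 25 had at least 10 counts, 14 of them higher than the median gene, and their median was 8.79 CPM per kb. Laptm4a led them at 247 CPM per kb, beside Lamp1 at 246, followed by Laptm4b at 66.2, Mfsd1 at 42.4 and Sidt2 at 25.7 CPM per kb. Laptm5, Mcoln2, Mcoln3 and Mfsd8 were listed at 0. Slc29a3, a nucleoside transporter of lysosomes named here because of the study's subject and after its value was seen, had 230 counts at 1.85 CPM per kb.

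Of 20 other proton pump genes in the table, 11 had at least 10 counts, 4 lay above the median gene and the median was 5.39 CPM per kb. The highest were the assembly factor Tmem199 at 29.2 CPM per kb, Atp6v0a2, the assembly factor Ccdc115 at 18.4 CPM per kb and Tcirg1. Atp6ap1l was listed at 0 beside the 4 paralogs at 0 named above. The 3 further lists of hydrolases, membrane proteins and pump genes thus had lower medians than the hydrolase, membrane and pump groups of the 46. The further pump list holds the paralogs known for narrower use, so its lower median follows in part from how the lists were made.

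Genes that sort hydrolases to lysosomes or activate them were all covered. All 15 had at least 10 counts, 9 lay above the median gene and the median was 12.4 CPM per kb. The mannose 6-phosphate receptors, which carry hydrolases from the Golgi, were among the highest, with M6pr at 36.1 and Igf2r at 17.6 CPM per kb. The adaptors Gga1 and Ap3b1 stood at 29.1 and 17.4 CPM per kb. TCACGTGA was in the window of 3 of 11 sorting genes with a promoter (27.3%), Gnptg, Igf2r and Sumf1. It was also in that of Clcn7, Cln3, Mfsd1 and Slc36a1 among 25 membrane proteins (16%), of Dpp7 among 27 hydrolases (3.70%) and of Vma21 among 13 pump genes (7.69%).

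The list of TFEB regulators, which also holds the family member Tfec and Hif1a, stood high. Of its 15 genes, 11 were higher than the median gene. The 13 with at least 10 counts had a median of 29.6 CPM per kb. Rraga, a GTPase that brings TFEB and mTORC1 to the lysosome, stood at 102 CPM per kb. Ywhab, a 14-3-3 protein that can hold TFEB in the cytoplasm, stood at 97.1 CPM per kb, and Ppp3r1, the regulatory subunit of calcineurin, which removes phosphates from TFEB, at 68.3 CPM per kb. Hif1a, listed as a related factor of stress responses, stood at 77 CPM per kb. Of 12 genes of this list with a promoter, none held TCACGTGA, and Fnip1, Hif1a and Rragc (25%) held TCACGTG. Among genes with at least 10 counts, 2.22% and 7.01% held these motifs.

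**Figure D4:**
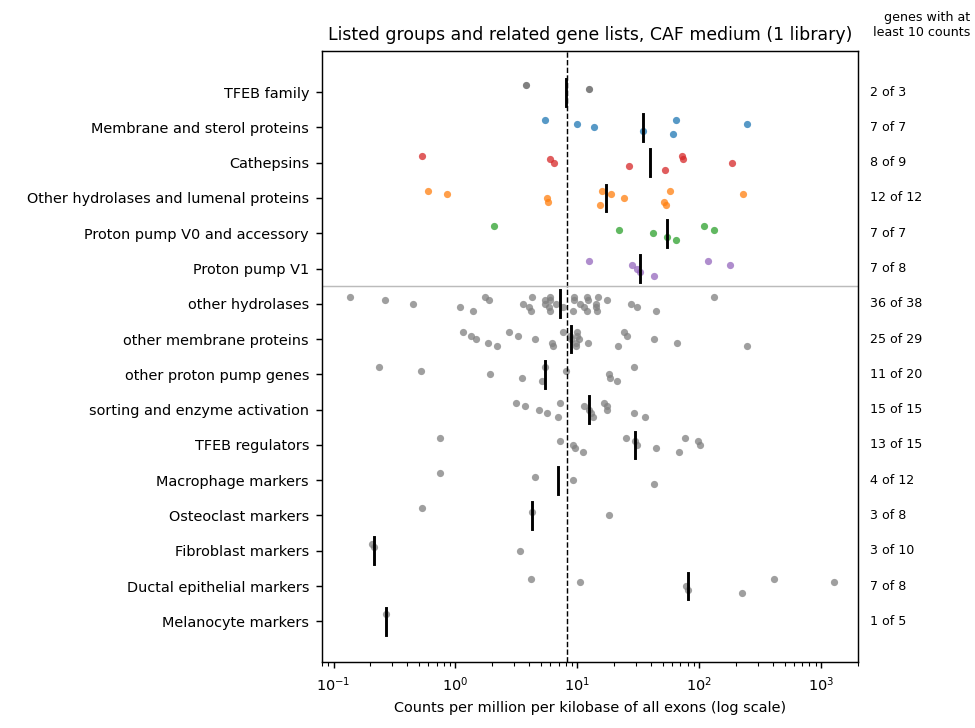
Levels of the 6 groups of lysosomal genes (coloured), and of 5 related gene lists and 5 lists of cell type markers (grey), in the CAF-medium library. The scale is CPM per kilobase of all exons, on a log scale. Each point is a gene with at least 10 counts, black bars are medians, and the numbers at the right give how many genes reached 10 counts. The medians of both pump groups, of the membrane group and of the cathepsins lie between 32.4 and 54.7 CPM per kb, right of the dashed median gene at 8.14 CPM per kb. Among the coloured groups, the median of other hydrolases and lumenal proteins lies at 17.3 CPM per kb. That of the TFEB family lies at 8.07 CPM per kb, just left of the dashed line.

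Several of these genes are also markers of other cell types, so marker lists are given beside them. Of 8 markers of ductal epithelium, 7 had at least 10 counts, led by the keratins Krt18, Krt8 and Krt19 at 1266, 407 and 226 CPM per kb, while Epcam had 2 counts. Of 12 macrophage markers, 4 reached 10 counts, 6 stood at 0, Csf1r and Lyz2 among them, and Ptprc and Adgre1 had 1 count each. Above the median gene were the mannose receptor gene Mrc1, with 5764 counts at 42.5 CPM per kb, and Cd14, with 339 counts at 9.2 CPM per kb, and Cd68 had 121 counts at 4.53 CPM per kb. Of 10 fibroblast markers, 3 had at least 10 counts, none of them above the median gene, and Col1a2, Col3a1, Dcn, Lum and Thy1 were listed at 0. Of 8 osteoclast markers, those with at least 10 counts were Tcirg1, Acp5 and Ctsk, all of them lysosomal genes, and Atp6v0d2, Calcr, Dcstamp and Ocstamp were listed at 0. Of 5 melanocyte markers, Pmel had 13 counts and the other 4 were listed at 0. Against the label of a ductal line, the keratin genes and the cadherin gene Cdh1, at 80.9 CPM per kb, were thus high, and Epcam was the marker nearly without counts.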

How the data were processed

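RNA of 14837 cells kept in conditioned medium was sequenced, 1 library per medium. For every gene symbol the authors deposited a whole-number count, with no scaling. The submitters' processing notes name the build mm10, StringTie and HISAT2 2.1.0 without their roles. For the counting method, strand setting and handling of reads with several matches, the sources used here give nothing. The CAF column was tied to its library by the sample's title. The name of 1 other value column matched no library, so it was not used and the planned comparison of media was not made.

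Counts were divided by the column total of 21269197 to give CPM, then by the gene's total exon length (GENCODE M21, GRCm38), its longest transcript or its longest protein-coding transcript. Intervals are exact Poisson for levels and exact binomial for shares and for ratios of counts. With 1 library there is no replicate error and no test. For a count of 0 the limit is 3 counts, or 0.141 CPM. Precision is set by the counts given beside each level. Genes with at least 10 counts were ranked. Transcripts were cut into 64-base windows every 16 bases to find sequence shared with other genes. Promoter windows were taken from RefSeq and coordinates are 1-based.

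The 46 genes and all lists were chosen with earlier results of these data known. Every one of the 46 could be named. Outside them, the 4 highest genes per length of each list, those at 0 counts and partners in the 21 pairs were named, and other names were chosen after their values were seen. Some genes that meet these rules are left out of the text. Scripts were tested on simulated data. The tools were scipy 1.17.1 with pandas 2.3.3, numpy 2.4.6 and, for figures, matplotlib 3.10.9 under Python 3.11.15. A comparison of proteins was planned and is not analysed here.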

Additional observations from a re-analysis of the deposited data

How the results depend on the processing

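No paired analysis was possible because the 2 media have 1 library each and only the CAF-medium library was used. No replicate could be left out, and the comparison of media was not run. With another gene length, 36 of 44 levels left their counting interval per kilobase of the longest transcript and 38 of 44 per kilobase of the longest protein-coding transcript. In the same order, these lengths gave medians (CPM per kb) of 39.3 and 59.5 over all genes and 13.6 and 21.5 for the TFEB family. For the membrane group they gave 81.3 and 92.2. They gave 44.5 and 44.5 for cathepsins, 20.1 and 20.1 for other hydrolases, 72.4 and 72.4 for V0, and 60.9 and 61.1 for V1. With no minimum count the medians were 27.2 over all genes, 3.76 for the TFEB family and 26.4 for cathepsins, and 2 TFEB factors and 8 cathepsins lay above the median of all entries, which includes those at 0. A minimum of 100 counts gave 33.6 over all genes, 52.2 for cathepsins and 21.5 for other hydrolases. Leaving out genes with over 10% of windows shared gave 21.5 for other hydrolases, 59.5 for V0 and 30.7 for V1. Without the highest gene of each group the medians were 29.4 over all genes and 24.2 for the membrane group. That of the TFEB family was 3.76, with 0 above the median gene. For cathepsins, other hydrolases and V0 the medians were 26.4, 15.8 and 48.1. The share of counts was 0.724% with the mitochondrial genes left out of the total. TCACGTGA was in 4 genes within the 150 bases up to the start. The coding length for ratios of gene pairs was added after seeing the data. The ratio of Atp6ap1 to Atp6ap2 was 0.851 per kilobase of all exons and 1.04 by either other length, and no other ratio of a pair crossed 1 between the 3 lengths. Depth limits Mitf, Ctsk, Rnaset2a and Rnaset2b, whose counts were under 100.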

Other observations

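Of 12 macrophage markers, Mrc1 was the 1 in the upper quartile of genes, at 271 CPM (264 to 278), with 0 counts for C1qa, C1qb, Tyrobp and Lyz2, and no exons of other genes overlap its own. Epcam, a surface protein of epithelial cells, had 2 counts, or 0.0940 CPM, beside 38699 counts of Krt18 and 7869 of Cdh1. Rnasek, a small protein associated with V0, had 2 counts, and exons of Gm21988 cover 67.7% of its exonic bases. Dmxl2, which helps to assemble the pump, had 4 counts, while its relative Dmxl1 had 2378. Rragd, a GTPase whose gene is a known target of TFEB, had 2 counts, while Rraga had 3511 and Rragc 3122. These genes were singled out after their values were seen.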
